A study of Homo sapiens with 11 samples.

Results

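WM1119 was set against vehicle in HEC50B cells in which PPP2R1A had been returned to wild type, 6 of the 11 RNA-seq libraries of the series, 3 for each treatment. HEC50B is a human endometrial carcinoma cell line whose parental form carries the R183W substitution in PPP2R1A. The comparator, called WT here, was made from it with CRISPR, and the labels do not say whether it is a single clone. Cells received 50 µM WM1119, after which the labels call KAT6A inactive, or vehicle control for 4 days. The other 5 libraries are parental R183W cells, 3 with vehicle and 2 with WM1119, and they enter the text only through the spread they share and through the test of the difference between the lines. Nothing in the labels ties the numbered libraries to separate cultures. All p-values therefore set a difference between groups against the spread of these libraries, and that spread may be purely technical.

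KAT6A (MOZ) is a lysine acetyltransferase that works in a complex with BRPF scaffold proteins, ING proteins and MEAF6, and acetylates histone H3 at promoters and enhancers. It is known for keeping developmental genes active and for restraining senescence, and WM1119 competes with acetyl-CoA for its catalytic site. PPP2R1A encodes the scaffold of PP2A, the phosphatase on which catalytic and regulatory subunits assemble. PP2A opposes many kinases, among them those of the ERK and Hippo pathways.

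The WT libraries held 2609922 to 5261548 counts, and the lowest total was that of WT WM1119 library 3. Library 3 stood apart from its group before any comparison. Its log CPM correlated with those of libraries 1 and 2 at 0.917 and 0.937, against 0.967 between those 2, and 827 genes were at least 2-fold above and 1842 at least 2-fold below their mean in it. The value without it is therefore given beside many of the results, and each named gene whose call ended without it is said to have done so. Each level is a CPM value (a count scaled to library size with TMM factors) for libraries 1, 2 and 3 in that order. As a check of the cell type, the summed level of 8 carcinoma markers was 1879 to 2335 CPM with vehicle and 2141 to 2436 CPM with WM1119. The 6 matched endothelial markers summed to at most 0.22 CPM and the 8 leukocyte markers to 3.08 to 11.6 CPM in any WT library. Of 10 fibroblast markers, 4 were at 0 in every vehicle library and 6 in every WM1119 library. Most of that list's sum came from COL1A1 and PDGFRA. CDH1 and KRT19, which mark many carcinomas, were at most 0.67 CPM with vehicle and at 0 with WM1119, while KRT18 stood at 743 to 1263 CPM.

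The edited gene and the target of the inhibitor were looked at first. Counts per gene hold no information on the edited codon. PPP2R1A (ENSG00000105568) read 25, 24.6 and 20.1 CPM with vehicle and 29, 30.3 and 23.9 CPM with WM1119, with 1 treated library inside the range of the vehicle libraries (log2 change 0.27, SE 0.18, edgeR adjusted p = 0.417). KAT6A (ENSG00000083168) read 179.8, 146 and 123 CPM with vehicle and 181, 205 and 284 CPM with WM1119. All 3 treated libraries lay above every vehicle library, library 1 by little over 1 CPM, and the gene was not called (log2 change 0.58, SE 0.18, edgeR adjusted p = 0.0896; 0.37 without library 3, edgeR adjusted p = 0.178). Counts of mRNA do not report the activity of the enzyme.

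With WM1119, WT cells held more mRNA of the junction protein CLDN3, of the interferon-induced modifier ISG15 and of replication genes such as CDT1 and MCM7. They held less of the YAP target ANKRD1, the AP-1 subunit FOSL1, the ERK phosphatase DUSP5 and secreted factors such as AREG, INHBA and GDF15. These genes moved the same way, past the threshold, with and without library 3.

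A gene was called at a Benjamini-Hochberg adjusted p under 0.05 in edgeR's quasi-likelihood test, over 13980 genes. By this measure 680 genes were called in WT cells (4.86% of those tested), 326 higher (2.33%) and 354 lower (2.53%). In each of the 680 the 3 WM1119 libraries lay wholly on 1 side of the 3 vehicle libraries, an arrangement that 10.7% of the genes tested showed upward and 11.6% downward. Without library 3 the number called was 842 (6.06%), 354 higher (2.55%) and 488 lower (3.51%). It kept 574 of the 680, or 84.4%, and no called gene changed sign. In the plot of both sets of log2 changes the points lie close to the diagonal. Of the 680, 139 were called when only the 6 WT libraries were fitted (1.09% of 12744 genes, 0.369% higher and 0.722% lower). The other calls were not made from those 6 libraries alone, and why they were lost was not tested. With only the WT libraries and without library 3, 335 genes were called (2.55%; 1.02% higher and 1.53% lower), and 287 of the 680 were among them. The count hung on other libraries as well: it was 260 without WT vehicle library 2, 247 without WT vehicle library 3, 272 without WM1119 library 2 and 1392 without WM1119 library 1.

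**Figure D1:**
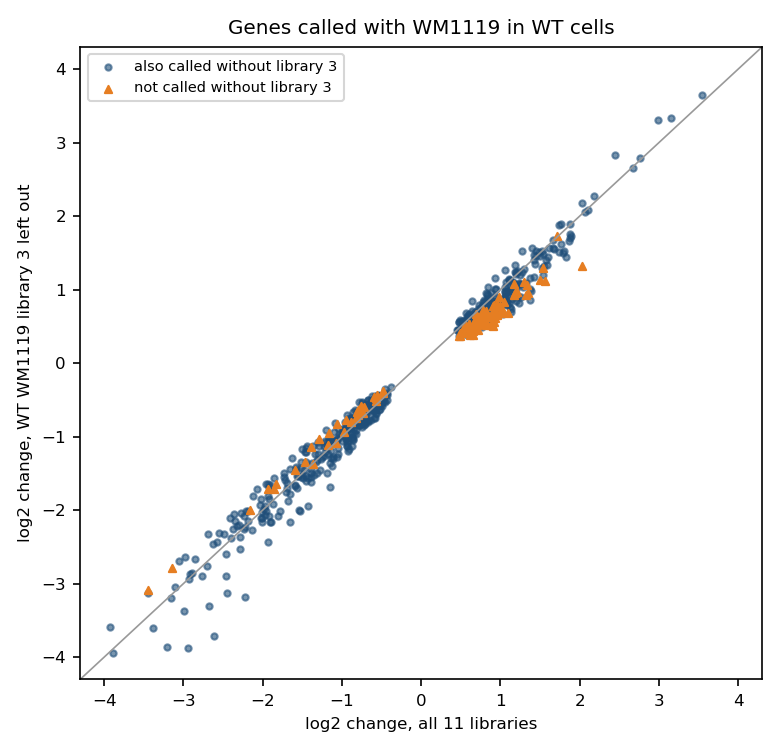
Log2 change with WM1119 against vehicle in WT cells for genes called with all 11 libraries (horizontal axis) against the same change with WT WM1119 library 3 left out (vertical axis). Each point is 1 gene, 673 of the 680 fall within the axes, triangles are genes no longer called without library 3, and the grey line marks equal values. The points lie along that line in both directions.

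Among genes of at least 5 CPM called with and without library 3, the largest increase was that of CLDN3 (ENSG00000165215), a claudin that seals tight junctions of epithelia. It read 5.13, 9.53 and 4.14 CPM with vehicle and 69.4, 88.4 and 62.3 CPM with WM1119, and its lowest treated library stood far above its highest vehicle library (log2 change 3.54, SE 0.30, edgeR adjusted p = 1.8e-05; 3.64 without library 3, edgeR adjusted p = 8.63e-07). NUDT8, a mitochondrial nudix hydrolase, read 1.34, 2.86 and 0.565 CPM with vehicle and 13.8, 18.8 and 10.3 CPM with WM1119 (log2 change 3.16, SE 0.51, edgeR adjusted p = 0.00308). FZD2, a WNT receptor, went from 1.78, 1.72 and 1.88 CPM to 16.5, 9.25 and 2.89 CPM, and library 3 stood much nearer to vehicle than libraries 1 and 2 did (log2 change 2.44, SE 0.52, edgeR adjusted p = 0.0168; 2.83 without library 3, edgeR adjusted p = 0.00058). RPL28 (ENSG00000108107), a protein of the large ribosomal subunit, stood at 85.2, 76.2 and 44.2 CPM with vehicle and at 279, 382 and 266 CPM with WM1119 (log2 change 2.18, SE 0.26, edgeR adjusted p = 0.000522; 2.27 without library 3, edgeR adjusted p = 3.51e-05). NDUFS7 and NDUFV1, both subunits of respiratory complex I, rose too. NDUFS7 went from 17.8, 12.6 and 13 to 37.6, 57.8 and 66.9 CPM (log2 change 1.89, SE 0.28, edgeR adjusted p = 0.00171). NDUFV1 went from 74.7, 64.8 and 48.9 to 161, 208 and 236 CPM (log2 change 1.68, SE 0.21, edgeR adjusted p = 0.00061). SGTA, a co-chaperone of tail-anchored membrane proteins, PHPT1, a protein histidine phosphatase, RPS6KB2, a ribosomal S6 kinase, and VWA1, a matrix protein, rose by log2 changes of 1.86, 1.79, 1.82 and 1.77. In these 4 genes library 3 was the highest of the WM1119 libraries, and without it the log2 changes were 1.65, 1.49, 1.44 and 1.61. ISG15 is described with its group. The rest of the 15 largest increases, REX1BD, GPATCH3, PRR36, SEPTIN5 and GPR55 stood at 0.572 to 6.69 CPM with vehicle and 4.95 to 23.1 CPM with WM1119.

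Among the largest decreases were secreted factors and genes of cell shape. MMP1, an interstitial collagenase, stood at 5.13, 6.48 and 6.21 CPM with vehicle and 0, 0.771 and 0.413 CPM with WM1119, where the 3 libraries held 0 to 3 counts and the size of the change is loosely set (log2 change -3.90, SE 0.72, edgeR adjusted p = 0.00921; -3.95 without library 3, edgeR adjusted p = 0.00959). INHBA (ENSG00000122641), the activin A subunit, read 185, 213 and 289 CPM with vehicle and 45.7, 36.7 and 27.2 CPM with WM1119 (log2 change -2.63, SE 0.22, edgeR adjusted p = 1.86e-05; -2.47 without library 3, edgeR adjusted p = 1.54e-06). TMEM158, a gene known for its induction by RAS, stood at 133, 137 and 145 and then 20.9, 22.6 and 12.8 CPM (log2 change -2.85, SE 0.19, edgeR adjusted p = 2.88e-06; -2.67 without library 3, edgeR adjusted p = 3.28e-08). FBXO32, the muscle atrophy ubiquitin ligase atrogin-1, went from 111, 133 and 137 to 23.7, 22.9 and 16.1 CPM (log2 change -2.58, SE 0.22, edgeR adjusted p = 1.8e-05; -2.44 without library 3, edgeR adjusted p = 1.73e-06). INHBA, TMEM158 and FBXO32 were lowest in library 3 and still well below vehicle in libraries 1 and 2. TRPM8, a cold-sensing cation channel, went from 6.25, 5.34 and 5.08 to 0.22, 0.514 and 1.24 CPM, at most 3 counts in each treated library (log2 change -3.21, SE 0.67, edgeR adjusted p = 0.0152; -3.86 without library 3, edgeR adjusted p = 0.00745). PRDM8, TCIM, BAALC, BCAS1, RASGRF2 and BEST1 were also among the 15 largest decreases, as were ANKRD1, AREG and PAEP, which are described with their groups. The first 6 had vehicle levels of 2.86 to 20.5 CPM, and none exceeded 4.39 CPM in any WM1119 library.

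**Figure D2:**
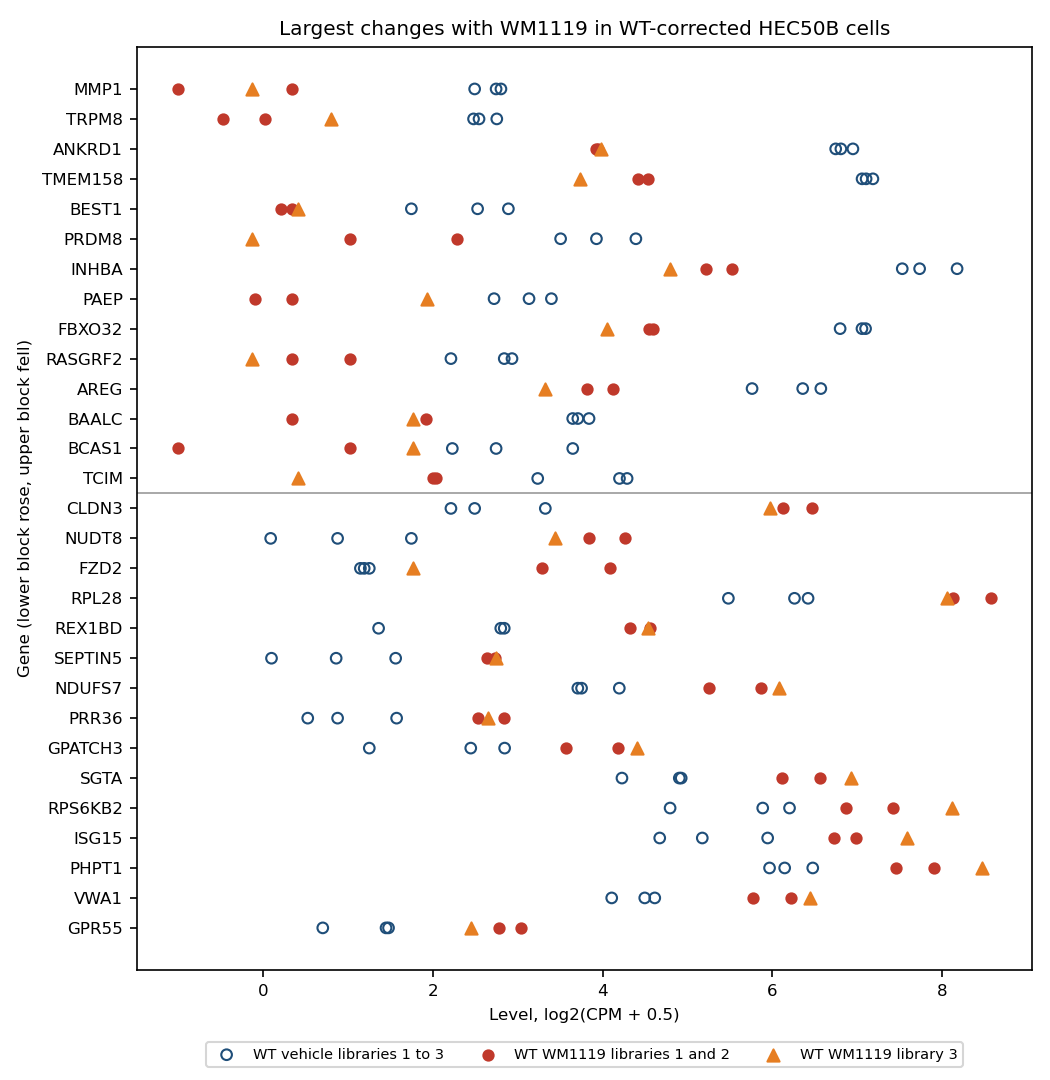
Level of the largest increases (below the grey line) and largest decreases (above it) named in the text, among genes called with and without WT WM1119 library 3, as log2(CPM + 0.5) on the horizontal axis, with 1 point per WT library. In every gene shown the 3 WM1119 libraries and the 3 vehicle libraries occupy separate ranges. Of the 3 WM1119 libraries, library 3 (triangles) is the nearest to vehicle in some genes, such as FZD2 and PAEP. It is the farthest in others, such as PRDM8, TCIM, PHPT1 and RPS6KB2.

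Changes in WT cells also moved with the GC content of the transcripts. Genes called higher had a median GC of 58.4%, genes called lower 48.1% and all genes tested with a value 49.7%. In 5 bins of equal size, from low to high GC content, the median log2 change was -0.13, -0.10, -0.04, 0.11 and 0.24. The top bin held 151 of the genes called higher and the lowest bin 21. The shift was steepest in library 3 and, in the opposite direction, in WT vehicle library 3, while WM1119 library 1 was nearly flat. For WM1119 in R183W cells the median log2 change also rose, from -0.07 in the lowest bin to 0.14 in the top bin. With each library corrected for GC content, 608 genes were called in WT cells (4.35%), 262 higher (1.87%) and 346 lower (2.47%), and 526 of the 680 were among them. Among genes named in the text, those no longer called were ACTN1, ARG2, BCAS1, CLDN1, COL1A1, CTPS1, CTSA, CTSD, DDX21, E2F1, ESRP1, FOXO1, HSPB1, IFITM3, LAMC1, NARS1, NPM1, PMAIP1, PRR36, PSMD8, SEPTIN5 and TEAD2. The part of GC content in their changes was not tested further.

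**Figure D3:**
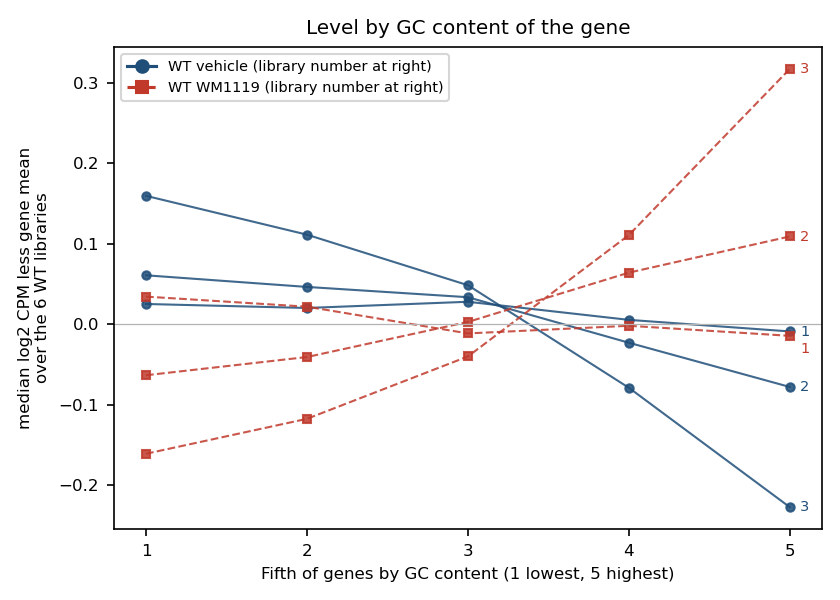
Median over genes of log2 CPM less each gene's mean over the 6 WT libraries (vertical axis) in 5 equal bins of genes by GC content (horizontal axis, low to high), with 1 line per library. WM1119 library 3 rises from -0.16 to 0.32 and vehicle library 3 falls from 0.16 to -0.23, while library 1 of each group stays close to 0.

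Cells copy DNA once per cycle by loading the MCM helicase on origins before S phase and by firing it with polymerases, clamp loaders and ligase during S phase. E2F factors, held back by RB until cyclin-dependent kinases act, switch on most of these genes. In WT cells with WM1119 more of these genes were called higher than lower. Of 23 origin licensing genes, 7 were called higher (30.4%) and none lower, with a median log2 change of 0.56. The count was 8 without library 3, 7 after GC correction and 1 with only the 6 WT libraries. Relative to the vehicle mean the list's median was 0.67, 0.52 and 0.19 on the log2 scale in WM1119 libraries 1, 2 and 3, so library 3 showed the smallest shift over the list. Of 29 fork genes, 4 were called higher (13.8%) and none lower, with a median of 0.32. The fork count was 6 without library 3, 5 after GC correction and 0 with only the WT libraries. Of 16 E2F, RB and cyclin E genes, 4 were called higher (25%), again with none lower and a median of 0.37. That count was 3 without library 3 and 0 with only the WT libraries.

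CDT1 (ENSG00000167513), the loading factor of the MCM helicase, stood at 40.8, 37.2 and 23.7 CPM with vehicle and 58.2, 74.5 and 89.6 CPM with WM1119 (log2 change 1.12, SE 0.21, edgeR adjusted p = 0.00863; 0.97 without library 3, edgeR adjusted p = 0.00771). MCM7 (ENSG00000166508), a helicase subunit, stood at 87.9, 87.7 and 83.2 and then 143, 165 and 171 CPM (log2 change 0.88, SE 0.16, edgeR adjusted p = 0.00731; 0.83 without library 3, edgeR adjusted p = 0.00457). It was also called with only the 6 WT libraries (edgeR adjusted p = 0.0303). MCM5 and MCM4 read 80.3, 63.5 and 54 and 72.1, 58.1 and 58.9 CPM with vehicle. With WM1119 they read 106, 127 and 236 and 99.9, 104 and 176 CPM, and library 3 carried the highest value of both, unlike the list as a whole. Their log2 changes were 1.23 and 1.00, and 0.82 and 0.70 without library 3. CDC6, which recruits the helicase with CDT1, went from 23.9, 17.9 and 25.6 to 38.4, 42.1 and 39.6 CPM (log2 change 0.84, SE 0.19, edgeR adjusted p = 0.0249). At the fork, POLD1, the catalytic subunit of polymerase delta, and its partner POLD2 changed by 1.43 and 0.71. LIG1, which joins Okazaki fragments, went from 50.4, 41.9 and 30.7 to 64.6, 82.5 and 115 CPM (log2 change 1.08, SE 0.23, edgeR adjusted p = 0.0151; 0.85 without library 3, edgeR adjusted p = 0.0163). TIMELESS, a fork protection protein, changed by 0.67 (SE 0.13, edgeR adjusted p = 0.012).

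E2F1 (ENSG00000101412) itself read 30.8, 25.2 and 27.8 CPM with vehicle and 37.3, 52.7 and 60.7 CPM with WM1119 (log2 change 0.84, SE 0.20, edgeR adjusted p = 0.0294; 0.69 without library 3, edgeR adjusted p = 0.0422), and missed the threshold after GC correction (edgeR adjusted p = 0.0636). CDK2, the kinase of cyclin E, went from 179.6, 156 and 119 to 246, 304 and 344 CPM (log2 change 0.97, SE 0.18, edgeR adjusted p = 0.00775; 0.86 without library 3, edgeR adjusted p = 0.00506). CCNE2, a cyclin E, changed by 0.93 (edgeR adjusted p = 0.0499). E2F2 changed by 0.96 but was not called without library 3, where the change was 0.66 (edgeR adjusted p = 0.0735). TK1, a salvage kinase for thymidine, went from 60.9, 47.5 and 58.3 to 88.5, 105 and 114 CPM (log2 change 0.88, SE 0.15, edgeR adjusted p = 0.00561), while CTPS1, which makes CTP, fell from 88.1, 82.9 and 77.2 to 52.1, 50.3 and 65.6 CPM (log2 change -0.57, SE 0.14, edgeR adjusted p = 0.0341). CHAF1A, a chaperone that places histones on new DNA, went from 94.2, 83.9 and 66.2 to 139, 139.7 and 195 CPM (log2 change 0.95, SE 0.17, edgeR adjusted p = 0.00631; 0.78 without library 3, edgeR adjusted p = 0.00413).

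Repair genes that act on forks had 2 of 23 called higher, BARD1 and FANCD2, with log2 changes of 0.54 and 0.54; without library 3 BARD1 missed the threshold (edgeR adjusted p = 0.0507). Of those 23 homologous recombination and Fanconi genes, 22 had a log2 change above 0, against 6940 of the 13980 genes tested. The list's median was 0.35 against -0.0031 for all genes tested. Of 34 mitosis genes none was called in either direction by edgeR, where the shares over all genes tested were 2.33% higher and 2.53% lower; 9 had an unadjusted p under 0.05, and DESeq2 called 1 higher. Limma-voom called 0, and 3 higher and 3 lower with sample quality weights. The list's median was -0.02, and without library 3 it was 0.04 with 1 called lower. CDKN1C (p57), an inhibitor of cyclin-dependent kinases, fell from 35.7, 39.8 and 36.3 to 20.4, 20.5 and 17.3 CPM (log2 change -0.93, SE 0.17, edgeR adjusted p = 0.00821; -0.86 without library 3, edgeR adjusted p = 0.0108), the single call among 9 CDK inhibitors, D cyclins and their kinases. Without library 3 that list had 2 called lower, and its median was 0.08 in place of -0.14. GADD45A and PLK2, both p53-responsive, fell by log2 changes of -1.03 and -2.21, with no other p53 target of 21 called.

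Promoter sequences of replication genes that were called higher are shown because an E2F motif lay within 250 bases before their start. The motif was searched as TTTGGCGC or TTTCCCGC on both strands in RefSeq promoters of GRCh38.p14, 250 bases up to the start of each gene, for the 10126 tested genes with an entry. It was found in 46.2% of 13 replication genes called higher, 25.3% of 75 replication genes tested, 5.44% of all genes called higher and 3.15% of the 10126. The share in the called genes is not independent of their choice, and a match is not a bound site. The 3 promoters are those of CDT1 (chr16:88803539-88803788, plus strand), MCM7 (chr7:100101398-100101647, minus strand) and E2F1 (chr20:33686386-33686635, minus strand), written 5′ to 3′ along the gene's strand with the match in capitals.
CDT1: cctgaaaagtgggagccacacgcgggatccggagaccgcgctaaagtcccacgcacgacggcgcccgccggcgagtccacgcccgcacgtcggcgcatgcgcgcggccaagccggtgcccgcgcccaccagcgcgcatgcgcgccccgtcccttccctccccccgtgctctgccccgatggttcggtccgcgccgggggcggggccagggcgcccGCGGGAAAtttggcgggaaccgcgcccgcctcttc
MCM7: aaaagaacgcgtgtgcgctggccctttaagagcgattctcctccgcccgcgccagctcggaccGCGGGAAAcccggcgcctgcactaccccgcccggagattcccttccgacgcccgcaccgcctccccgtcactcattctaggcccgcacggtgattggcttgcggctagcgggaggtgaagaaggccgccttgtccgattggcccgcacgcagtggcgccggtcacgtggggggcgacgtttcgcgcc
E2F1: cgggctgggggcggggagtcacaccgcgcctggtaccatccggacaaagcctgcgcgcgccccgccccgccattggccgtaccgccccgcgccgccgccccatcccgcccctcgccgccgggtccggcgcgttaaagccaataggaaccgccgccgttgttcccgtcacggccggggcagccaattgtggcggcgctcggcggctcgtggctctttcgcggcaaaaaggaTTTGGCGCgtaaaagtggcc
The matches begin 35, 187 and 20 bases before the start.

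YAP and its partner TEAD carry cell tension and Hippo signals to the genome, and AP-1 factors such as FOSL1 and JUN answer ERK signalling, often at the same enhancers. Calls among these targets were all lower. ANKRD1 (ENSG00000148677), a muscle ankyrin repeat protein and a classical YAP target, read 123, 107 and 112 CPM with vehicle and 14.9, 14.6 and 15.3 CPM with WM1119. The treated libraries lay within 1 CPM of each other, library 3 included (log2 change -2.93, SE 0.15, edgeR adjusted p = 2.23e-07; -2.94 without library 3, edgeR adjusted p = 3.28e-08). NT5E (CD73), an ectonucleotidase, went from 9.15, 16.6 and 14.5 to 5.27, 3.85 and 4.95 CPM (log2 change -1.52, SE 0.29, edgeR adjusted p = 0.0092; -1.55 without library 3, edgeR adjusted p = 0.00841). Those were the 2 calls among 22 YAP/TEAD targets (9.09%), with 4 without library 3. The list's median log2 change was -0.57, 20 of 22 members lay below 0 and 12 had treated libraries wholly below vehicle, against 7040 and 1622 (11.6%) of the 13980 genes tested. Among the factors themselves, TEAD2 moved the other way, from 139.9, 100.2 and 92.8 to 142, 199 and 217 CPM (log2 change 0.74, edgeR adjusted p = 0.0431), a call lost without library 3 (edgeR adjusted p = 0.0552).

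FOSL1 (FRA-1), an AP-1 subunit stabilised by ERK, read 66, 76.2 and 81.7 CPM with vehicle and 16.3, 15.9 and 12 CPM with WM1119 (log2 change -2.32, SE 0.16, edgeR adjusted p = 4.54e-06; -2.21 without library 3, edgeR adjusted p = 4.9e-07). JUN, its usual partner, went from 119, 101 and 101 to 56, 59.9 and 55.3 CPM (log2 change -0.90, SE 0.13, edgeR adjusted p = 0.00176). They were the 2 calls among 14 AP-1 and immediate early genes, 4 without library 3 and 5 after GC correction, all lower. Of 17 ERK feedback genes 4 fell (23.5%) and none rose. DUSP5, a nuclear ERK phosphatase, stood at 342, 351 and 319 CPM with vehicle and 133, 132 and 139 CPM with WM1119 (log2 change -1.32, SE 0.11, edgeR adjusted p = 1.39e-05; -1.34 without library 3, edgeR adjusted p = 1.54e-06). PHLDA1 went from 173, 222 and 226 to 96.9, 81.4 and 45.4 CPM, lowest in library 3 (log2 change -1.46, SE 0.21, edgeR adjusted p = 0.0016; -1.21 without library 3, edgeR adjusted p = 7.63e-05). The phosphatases DUSP1 and DUSP4 changed by -1.66 and -1.09. Over the ERK list the shift was -0.05, -0.29 and -0.92 in WM1119 libraries 1, 2 and 3, much the largest in library 3.

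The promoter of ANKRD1 (chr10:90921088-90921337, minus strand) is printed because it held the TEAD motif GGAATG 2 times, and those of PLAUR (chr19:43670170-43670419, minus strand) and IL11 (chr19:55370464-55370713, minus strand) because they held the AP-1 motif TGANTCA. Build, window and capitals are as for the E2F matches.
ANKRD1: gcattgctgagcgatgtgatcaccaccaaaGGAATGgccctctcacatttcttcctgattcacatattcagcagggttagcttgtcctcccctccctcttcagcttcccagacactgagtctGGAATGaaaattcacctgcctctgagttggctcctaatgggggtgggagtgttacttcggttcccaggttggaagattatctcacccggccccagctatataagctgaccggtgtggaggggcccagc
PLAUR: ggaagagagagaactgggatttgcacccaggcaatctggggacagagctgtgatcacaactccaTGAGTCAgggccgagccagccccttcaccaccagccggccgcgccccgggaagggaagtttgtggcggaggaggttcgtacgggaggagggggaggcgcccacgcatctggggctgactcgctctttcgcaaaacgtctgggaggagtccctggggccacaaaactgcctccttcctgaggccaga
IL11: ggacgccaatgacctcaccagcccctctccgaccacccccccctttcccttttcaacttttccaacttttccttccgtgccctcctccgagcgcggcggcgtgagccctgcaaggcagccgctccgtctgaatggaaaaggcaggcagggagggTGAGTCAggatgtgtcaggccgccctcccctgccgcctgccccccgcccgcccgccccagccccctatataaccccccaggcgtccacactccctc
The matches begin 220 and 128 bases before the start of ANKRD1, 186 before that of PLAUR and 96 before that of IL11. Across promoters the TEAD motif was found in 11.6% of genes called lower, 11.3% of those called higher and 9.4% of all. For AP-1 the shares were 5.58%, 2.09% and 3.7%.

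Ligands of the EGF receptor family bind receptors that feed the ERK pathway. Of 12 genes of the family 3 fell (25%), all of them ligands. A log2 change below 0 was found in 11 of the 12 (median -0.70), against 7040 of the 13980 genes tested. AREG, amphiregulin, read 53.8, 81.6 and 94.7 CPM with vehicle and 16.9, 13.6 and 9.5 CPM with WM1119 (log2 change -2.49, SE 0.28, edgeR adjusted p = 0.000277; -2.32 without library 3, edgeR adjusted p = 6.81e-05). EREG, epiregulin, whose gene lies beside AREG, read 93, 101 and 131 and then 47.4, 31.1 and 38 CPM (log2 change -1.48, SE 0.19, edgeR adjusted p = 0.000829; -1.46 without library 3, edgeR adjusted p = 0.000316). NRG1, neuregulin 1, went from 54.7, 51.5 and 43.8 to 27.9, 25.9 and 29.3 CPM (log2 change -0.85, SE 0.17, edgeR adjusted p = 0.0118; -0.89 without library 3, edgeR adjusted p = 0.00771). The 3 calls were also made without library 3 and after GC correction, and 2 with only the WT libraries.

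Among 10 other secreted cytokines and growth factors 2 fell (20%), and without library 3 the list had 4 called lower and 1 higher. GDF15, a stress cytokine, read 2007, 2084 and 2210.3 CPM with vehicle and 866, 814 and 859.6 CPM with WM1119 (log2 change -1.31, SE 0.10, edgeR adjusted p = 9.76e-06; -1.32 without library 3, edgeR adjusted p = 4.9e-07). IL11, a cytokine of the IL6 family, went from 9.37, 12.8 and 14.3 to 5.05, 2.57 and 1.24 CPM (log2 change -1.93, SE 0.37, edgeR adjusted p = 0.00982; -1.65 without library 3, edgeR adjusted p = 0.00891). In the TGF-beta, activin and BMP list 3 of 25 fell (12%), namely INHBA, BMP2 and TGFBI. BMP2 went from 3.79, 3.05 and 4.7 to 0.22, 0.257 and 1.24 CPM, at most 3 counts in each treated library (log2 change -2.94, SE 0.60, edgeR adjusted p = 0.0134). TGFBI, a matrix protein induced by TGF-beta, went from 112, 122 and 135 to 69.2, 67.8 and 59.9 CPM (log2 change -0.90, SE 0.14, edgeR adjusted p = 0.00261). Of 16 plasminogen activators, MMPs and inhibitors 3 fell (18.8%). SERPINE2, an inhibitor of plasminogen activators, read 121, 110.4 and 122 CPM with vehicle and 37.8, 30.3 and 44.2 CPM with WM1119 (log2 change -1.66, SE 0.15, edgeR adjusted p = 3.83e-05; -1.78 without library 3, edgeR adjusted p = 1.69e-06). PLAUR, the urokinase receptor, went from 40.4, 55.3 and 64.9 to 31.6, 25.2 and 10.7 CPM, lowest in library 3 (log2 change -1.21, SE 0.29, edgeR adjusted p = 0.0297; -0.91 without library 3, edgeR adjusted p = 0.0163). PLAT, tissue plasminogen activator, stood at 17.8, 17.5 and 21.8 and then 22.6, 23.6 and 22.7 CPM and was not called (edgeR adjusted p = 0.453).

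Matrix and adhesion genes had more calls downward than upward. Of 33 collagens, laminins and matrix glycoproteins 4 fell (12.1%) and 1 rose (3.03%), 6 and 1 without library 3, and 0 in either direction with only the 6 WT libraries. TNC, tenascin C, went from 30.3, 31.3 and 33.1 to 14.7, 12.3 and 5.78 CPM (log2 change -1.47, SE 0.26, edgeR adjusted p = 0.00635; -1.22 without library 3, edgeR adjusted p = 0.00306). FN1, fibronectin, stood at 468, 603 and 628 CPM with vehicle and 379.6, 347 and 225 CPM with WM1119 (log2 change -0.83, SE 0.18, edgeR adjusted p = 0.0167; -0.64 without library 3, edgeR adjusted p = 0.00829). LAMC1, a laminin chain, changed by -0.48. COL1A1, a chain of type I collagen, rose from 579.7, 609 and 657 to 863, 819 and 849.7 CPM (log2 change 0.46, SE 0.11, edgeR adjusted p = 0.0354), a call lost after GC correction (edgeR adjusted p = 0.369). With it the summed fibroblast markers stood at 716 to 870 CPM with vehicle and 945 to 1080.0 CPM with WM1119, while the other 3 tested markers of that list had log2 changes below 0.

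Integrins bind this matrix, and 2 of 13 fell (15.4%). ITGA3, which pairs with beta 1 on laminin, read 633, 521 and 445 CPM with vehicle and 185, 230.2 and 308 CPM with WM1119, and here library 3 was nearest to vehicle (log2 change -1.15, SE 0.18, edgeR adjusted p = 0.00294; -1.36 without library 3, edgeR adjusted p = 5.61e-05). ITGB5, a vitronectin receptor chain, changed by -1.05 (edgeR adjusted p = 0.0101). Of 31 actin and contractile genes 4 fell (12.9%) and 1 rose (3.23%), against 2.53% and 2.33% of all genes tested. The counts were 6 and 1 without library 3, and 1 and 0 with only the 6 WT libraries. LIMA1 (EPLIN), which bundles actin, went from 135, 108 and 126 to 45.9, 36.5 and 49.5 CPM (log2 change -1.49, SE 0.15, edgeR adjusted p = 8.29e-05; -1.57 without library 3, edgeR adjusted p = 8.12e-06). CAV1, the main caveolin, went from 114, 117 and 120.2 to 73.4, 58.1 and 73.1 CPM (log2 change -0.78, SE 0.15, edgeR adjusted p = 0.00977), and VIM, the mesenchymal filament vimentin, fell by a log2 change of -0.48. ACTN1, an actin crosslinker, rose by 0.56 (edgeR adjusted p = 0.0316), highest in library 3.

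Epithelial genes did not move as a block. Among 24 claudins and junction genes CLDN3 rose while CLDN16 and CLDN1 fell, and without library 3 the list had 2 called higher and 3 lower. CLDN16, a claudin of magnesium transport, read 434, 334 and 339 CPM with vehicle and stood at 181, 179 and 250.2 CPM with WM1119 (log2 change -0.86, SE 0.18, edgeR adjusted p = 0.0136; -1.03 without library 3, edgeR adjusted p = 0.000631). CLDN1 changed by -0.59 (edgeR adjusted p = 0.0341). Keratins, the filaments of epithelia, had 4 of 7 tested members called lower (57.1%) and none higher, with a median of -0.94. The count was 4 without library 3 as well, but 1 with only the 6 WT libraries and 2 with the WT libraries less library 3. Of the 7 keratins, 5 had a log2 change below 0 and 2 above, the highest 0.32. The 4 called keratins stood at no more than 25.4 CPM in any WT library, far under the KRT18 level given above. KRT15, a basal keratin, went from 10.5, 16 and 10.9 to 3.51, 1.8 and 2.06 CPM (log2 change -2.29, SE 0.40, edgeR adjusted p = 0.00713; -2.20 without library 3, edgeR adjusted p = 0.0083). KRT80 went from 19.9, 23.6 and 25.4 to 11.2, 13.4 and 11.1 CPM (log2 change -0.94, SE 0.23, edgeR adjusted p = 0.0341). KRT81 and KRT86, hair keratins that lie beside each other and are near-identical in sequence, changed by -2.24 and -2.28, and reads may be split between them. ESRP1, an epithelial splicing factor, stood at 3.35, 3.05 and 3.2 CPM with vehicle and 0.659, 0 and 0 CPM with WM1119, at most 3 counts per treated library, a call lost without library 3 (edgeR adjusted p = 0.0457 and 0.0687). PAEP, glycodelin, a secretory product of the endometrium, went from 10, 6.1 and 8.28 to 0.439, 0.771 and 3.3 CPM (log2 change -2.62, SE 0.67, edgeR adjusted p = 0.042; -3.71 without library 3, edgeR adjusted p = 0.00517). FOXO1, a factor of endometrial decidualisation, changed by -0.74, with an edgeR adjusted p of 0.0431 that was 0.0577 without library 3.

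**Figure D4:**
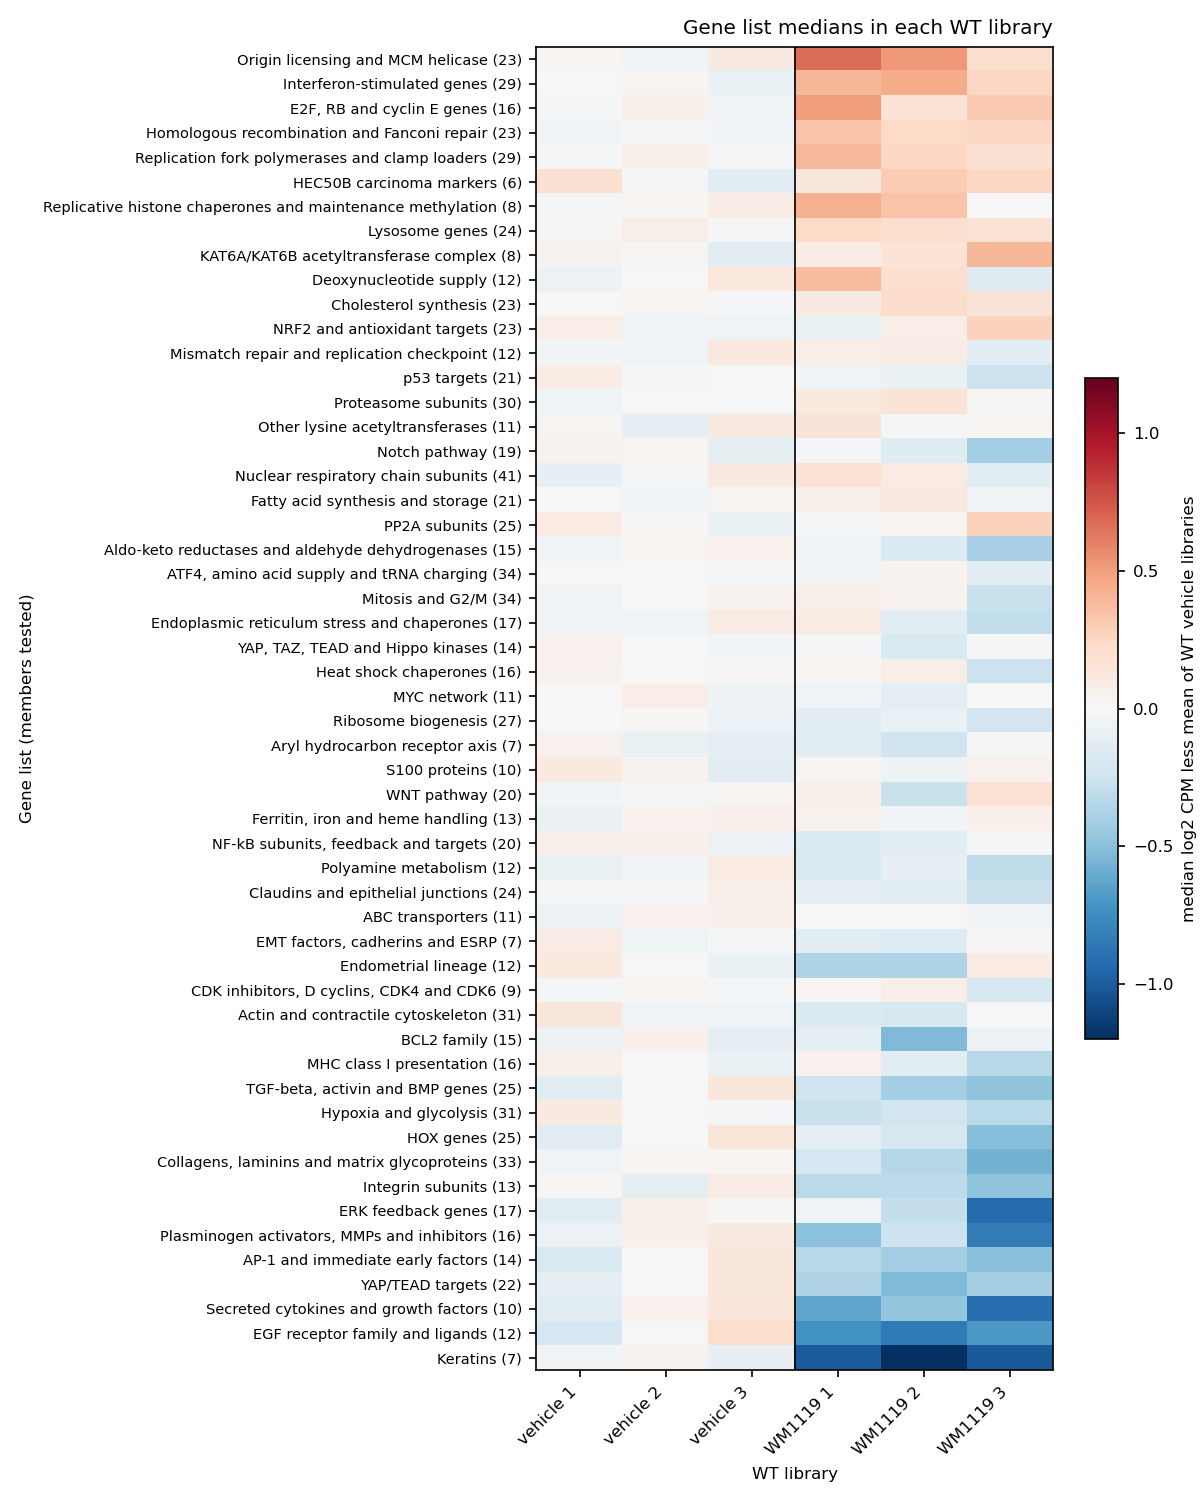
Median over the tested members of each gene list (rows, with the number tested) of log2 CPM less the mean of the 3 WT vehicle libraries, in each of the 6 WT libraries (columns); red is higher and blue lower. Keratins, EGF family, secreted factor and YAP/TEAD rows are blue and licensing, interferon and E2F rows red in all 3 WM1119 libraries, with the licensing shift smallest in library 3.

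Interferon-stimulated genes are switched on by interferon signalling at a DNA element called ISRE. Of 29 tested, 5 were called higher (17.2%) and none lower. The count was 4 without library 3 and 2 with only the WT libraries. SLFN5, an interferon-induced gene outside this list, was called lower (log2 change -1.87, SE 0.28, edgeR adjusted p = 0.00214; -1.92 without library 3, edgeR adjusted p = 0.00164). ISG15, a ubiquitin-like modifier, read 61.1, 35.6 and 25 CPM and then 106, 126 and 192 CPM, highest in library 3 (log2 change 1.80, SE 0.31, edgeR adjusted p = 0.00539; 1.52 without library 3, edgeR adjusted p = 0.00307). IFIT3, an antiviral RNA-binding partner, went from 21.2, 24.6 and 22 to 44.1, 37.8 and 35.1 CPM (log2 change 0.79, SE 0.18, edgeR adjusted p = 0.0235; 0.86 without library 3, edgeR adjusted p = 0.0127). IFITM3, which blocks virus entry and has close paralogs, went from 461, 383 and 386 to 519, 664 and 1079 CPM (log2 change 0.88, SE 0.22, edgeR adjusted p = 0.038), and missed the threshold after GC correction (edgeR adjusted p = 0.0528). The leukocyte markers given above stood at 3.08 to 8.67 CPM with WM1119 against 5.08 to 11.6 CPM with vehicle. Of 16 MHC class I presentation genes none was called in either direction by edgeR (4 at an unadjusted p under 0.05, median -0.16). There was 1 lower call without library 3 and 1 by DESeq2, none by limma-voom, and 3 higher and 1 lower with sample quality weights. Promoters of ISG15 (chr1:1013247-1013496, plus strand) and IFIT3 (chr10:89327747-89327996, plus strand) show the ISRE core, searched as GAAA, any 2 bases and GAAA again, with 2 matches each, which overlap in ISG15.
ISG15: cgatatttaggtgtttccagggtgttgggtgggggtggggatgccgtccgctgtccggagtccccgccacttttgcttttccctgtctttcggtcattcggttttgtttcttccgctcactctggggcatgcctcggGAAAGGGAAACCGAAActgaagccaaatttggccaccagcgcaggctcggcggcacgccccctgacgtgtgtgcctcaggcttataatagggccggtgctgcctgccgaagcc
IFIT3: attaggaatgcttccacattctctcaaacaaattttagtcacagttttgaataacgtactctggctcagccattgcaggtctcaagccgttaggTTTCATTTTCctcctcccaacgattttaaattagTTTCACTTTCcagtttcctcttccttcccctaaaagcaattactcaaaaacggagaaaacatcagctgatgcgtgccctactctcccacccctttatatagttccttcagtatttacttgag
They begin 113 and 107 bases before the start of ISG15, and 156 and 122 before that of IFIT3, where they lie on the other strand. The core was found in 75.0% of the 4 called interferon genes with a promoter entry, 2.09% of all genes called higher and 2.08% of the 10126. The ISRE share in the interferon genes is not independent of their choice, since such genes are switched on at this element. With 4 promoters a share is loosely set: the TEAD motif was found in 50.0% of the same 4, against 9.4% of the 10126. A match is not a bound site.

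RPL28 had the largest change of the ribosomal proteins. Over 77 cytosolic ribosomal proteins the median log2 change was -0.18, and the other 76 ran from -1.34 to 0.67. Pseudogenes can take or give reads of these genes. Ribosome biogenesis genes had 3 of 27 called lower (11.1%). They were NPM1, nucleophosmin, which went from 3715, 3981 and 4057 to 3166, 3063 and 2816 CPM (log2 change -0.38, SE 0.09, edgeR adjusted p = 0.0348), the helicase DDX21 (-0.49) and GNL3, nucleostemin (-0.75). NPM1 and DDX21 were not called after GC correction (edgeR adjusted p = 0.136 and 0.169). Of 41 nuclear respiratory chain genes only NDUFS7 and NDUFV1 were called, both also with only the 6 WT libraries, and the list's median was 0.04. Without library 3 that count was 4.

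Lysosome genes had 3 of 24 called higher (12.5%) and 1 lower (4.17%), against 2.33% and 2.53% of all genes tested. The counts were 4 and 1 without library 3, 0 and 0 with only the WT libraries, and 2 and 0 with the WT libraries less library 3. After GC correction they were 1 and 2, so more were then called lower than higher. HEXA, a hexosaminidase subunit, went from 35.5, 37.7 and 31 to 66.8, 53.4 and 52 CPM (log2 change 0.73, SE 0.15, edgeR adjusted p = 0.0151; 0.79 without library 3, edgeR adjusted p = 0.00609). The proteases CTSD and CTSA rose by 0.78 and 0.61, highest in library 3, and CTSA was not called without it (edgeR adjusted p = 0.0572). After GC correction CTSD and CTSA missed the threshold (edgeR adjusted p = 0.0577 and 0.0608). NPC1, a cholesterol exporter, fell by 0.95, a call lost without library 3 (edgeR adjusted p = 0.0572).

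Stress and metabolic genes split. AKR1C3, an aldo-keto reductase with close paralogs, rose from 31.7, 32.4 and 30.7 to 62.4, 76 and 68.1 CPM (log2 change 1.12, SE 0.14, edgeR adjusted p = 0.000656; 1.13 without library 3, edgeR adjusted p = 0.000196). AKR1B1, aldose reductase, fell from 385, 379 and 404 to 215, 228 and 187 CPM (log2 change -0.89, SE 0.11, edgeR adjusted p = 0.000656; -0.81 without library 3, edgeR adjusted p = 0.000137). Of 23 NRF2 and antioxidant targets 2 rose (8.7%), among them SLC48A1, a heme transporter, by 1.26. FTL, the ferritin light chain, went from 966, 971 and 896 to 1218, 1347 and 1349 CPM (log2 change 0.47, SE 0.10, edgeR adjusted p = 0.0171), and CYP1B1, a target of the aryl hydrocarbon receptor, from 123, 109 and 123 to 204, 199 and 209 CPM (log2 change 0.78, SE 0.14, edgeR adjusted p = 0.00578). Of 31 hypoxia and glycolysis genes 4 fell (12.9%) and 2 rose (6.45%), 5 and 1 without library 3. NDRG1, a hypoxia-induced gene, went from 129.6, 149 and 168 to 53.2, 47.3 and 20.2 CPM, lowest in library 3 (log2 change -1.86, SE 0.24, edgeR adjusted p = 0.000859; -1.57 without library 3, edgeR adjusted p = 4.41e-06). HIF1A and EPAS1, the oxygen-sensed factors, changed by -0.72 and -1.36, and BNIP3, a mitophagy receptor, by -0.78. PLIN2, which coats lipid droplets, went from 150.2, 166 and 150.4 to 86.1, 87.8 and 66.1 CPM (log2 change -0.95, SE 0.14, edgeR adjusted p = 0.0016).

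Amino acid genes had 3 of 34 called higher (8.82%) and 2 lower (5.88%). PSPH and SHMT2, of serine and glycine synthesis, rose by 0.68 and 0.65, SLC1A4, a neutral amino acid transporter, rose by 0.75, and NARS1, asparaginyl-tRNA synthetase, fell by 0.47. SAT1, which acetylates polyamines for export, fell from 239, 229.9 and 236 to 132, 135 and 156 CPM (log2 change -0.74, SE 0.11, edgeR adjusted p = 0.0025; -0.81 without library 3, edgeR adjusted p = 0.00024). BIRC3, an NF-kB target that restrains cell death, fell from 131, 130.0 and 125 to 55.1, 48.3 and 76 CPM, the single call of 20 in its list, which had 2 without library 3 (log2 change -1.12, SE 0.17, edgeR adjusted p = 0.00239; -1.31 without library 3, edgeR adjusted p = 6.81e-05). JAG1, a Notch ligand, and HEY1, a Notch target, fell by 0.74 and 0.91, 2 of 19 Notch genes. S100A2, a calcium-binding protein, went from 142, 135 and 138 to 96.6, 93.5 and 90 CPM (log2 change -0.57, SE 0.12, edgeR adjusted p = 0.0161). HSPB1, a small heat shock protein, rose by 0.55 and missed the threshold after GC correction (edgeR adjusted p = 0.139). PMAIP1 (NOXA), a death-promoting BCL2 relative, and ARG2, a mitochondrial arginase, fell by 0.72 and 1.29, and HAT1, a histone acetyltransferase, rose by 0.96. These 3 were not called without library 3 (edgeR adjusted p = 0.0727, 0.0691 and 0.0822). PSMD8, a proteasome lid subunit, rose by 0.64, a call lost after GC correction. It was the single call among 30 proteasome genes (3.33%, against 2.33% of all genes), and 2 were called higher without library 3.

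No member was called by edgeR in the KAT6A/KAT6B complex, PP2A subunit, HOX, MYC network, cholesterol synthesis, ABC transporter, mismatch repair and endoplasmic reticulum stress lists. Over these 8 lists 34 of 132 members had an unadjusted p under 0.05. DESeq2 called 1 higher and 2 lower, limma-voom none, and limma-voom with sample quality weights 10 higher and 12 lower. Their medians ran from -0.23 for 25 HOX genes to 0.20 for 8 complex genes. Without library 3 a PP2A subunit and an endoplasmic reticulum stress gene were called lower, and after GC correction 1 HOX gene lower and 1 mismatch repair gene higher. Of the 25 HOX genes 18 lay below 0, as did 7040 of the 13980 genes tested. The treated libraries lay wholly below vehicle in 6 HOX genes and wholly above in 1, where the shares over all genes were 11.6% and 10.7%.

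Library 3 ranked unevenly among the treated libraries. Among the 326 genes called higher it was the highest of the treated libraries in 234, and among the 354 called lower it was the lowest in 155. Of the 106 calls lost without it 74 were higher and 32 lower, and of the 268 gained 102 were higher and 166 lower. The largest of those lost were ESRP1, PDE1C, PDE2A and DSCR4. PDE1C and PDE2A, cyclic nucleotide phosphodiesterases, read 0.659, 0 and 0 and 1.54, 1.28 and 0.826 CPM with WM1119 against 2.9, 2.29 and 2.63 and 3.35, 3.24 and 10.5 CPM with vehicle. DSCR4 stood at 1.12, 2.67 and 2.45 and then 6.37, 4.11 and 16.5 CPM, and its change went from 2.02 to 1.32 (edgeR adjusted p = 0.0417 and 0.118). As a description, the genes that stood highest in library 3 against the mean of libraries 1 and 2 included MC1R, a melanocortin receptor (1.54, 0 and 12.4 CPM), FN3K, a kinase of glycated proteins (2.86, 1.54 and 13.6 CPM), and TYMP, thymidine phosphorylase (1.76, 4.88 and 14 CPM). Others were SLX1B, CRYBA2, NPIPB12, KHDC1-AS1 and the read-through gene RNASEK-C17orf49. SOCS3, a brake on cytokine signalling, stood among the lowest (21.1, 9.5 and 0.413 CPM), as did PKDCC (47.4, 19.5 and 2.06 CPM), the mitotic kinesin KIF18B (14.1, 15.2 and 0.826 CPM), SNX7 and ATRN. In the read-through genes BLOC1S5-TXNDC5, ISY1-RAB43 and DNAAF4-CCPG1, whose reads can be assigned to their parts, library 3 held no count. This was not particular to library 3. BLOC1S5-TXNDC5 and DNAAF4-CCPG1 were also at 0 in WT vehicle library 2, and ISY1-RAB43 in R183W vehicle library 3.

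The response of WT cells was tested against that of R183W cells, in which 649 genes were called with WM1119 (4.64% of those tested, 1.99% higher and 2.65% lower). The interaction, the effect in R183W less that in WT cells, was called for 40 genes (0.286%), 13 higher (0.093%) and 27 lower (0.193%). Of these, 18 were called higher and 12 called lower in WT cells. Without WT WM1119 library 3 it was 192 (1.38%; 0.446% higher and 0.935% lower), and none was called by edgeR without R183W vehicle library 2 or 3, where 1076 and 1125 genes had an unadjusted p under 0.05. It was 20 when R183W vehicle library 1 was dropped, 12 or 13 when WT vehicle library 2 or 3 was, 13 when WT WM1119 library 2 was, and 2 or 1 when R183W WM1119 library 1 or 2 was. On the lower side were 4 of 23 licensing genes, 3 of 29 fork genes and 2 of 16 E2F genes. MCM7 rose in WT cells, as given above, while in R183W cells it read 217, 155 and 145 CPM with vehicle and 109.7 and 90.3 CPM with WM1119 (interaction -1.67, SE 0.24, edgeR adjusted p = 0.0148). CDC6, E2F1, CHAF1A, TK1 and FANCD2 had interactions of -1.79, -1.68, -1.47, -1.33 and -1.10. FN1 fell in WT cells, but read 61, 73.4 and 69.6 CPM with vehicle and 151 and 157 CPM with WM1119 in R183W cells (interaction 2.01, SE 0.27, edgeR adjusted p = 0.0148). JAG1 and SAT1 likewise had positive interactions, of 1.41 and 1.27. SLFN5, an interferon-induced gene, had a log2 change of -1.87 in WT cells and of 0.24 in R183W cells. ANKRD1 and CLDN3 had interactions of -1.12 and -0.000346 that were not called (edgeR adjusted p = 0.0609 and 0.999), though ANKRD1 was called without library 3 (edgeR adjusted p = 0.0234).

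**Figure D5:**
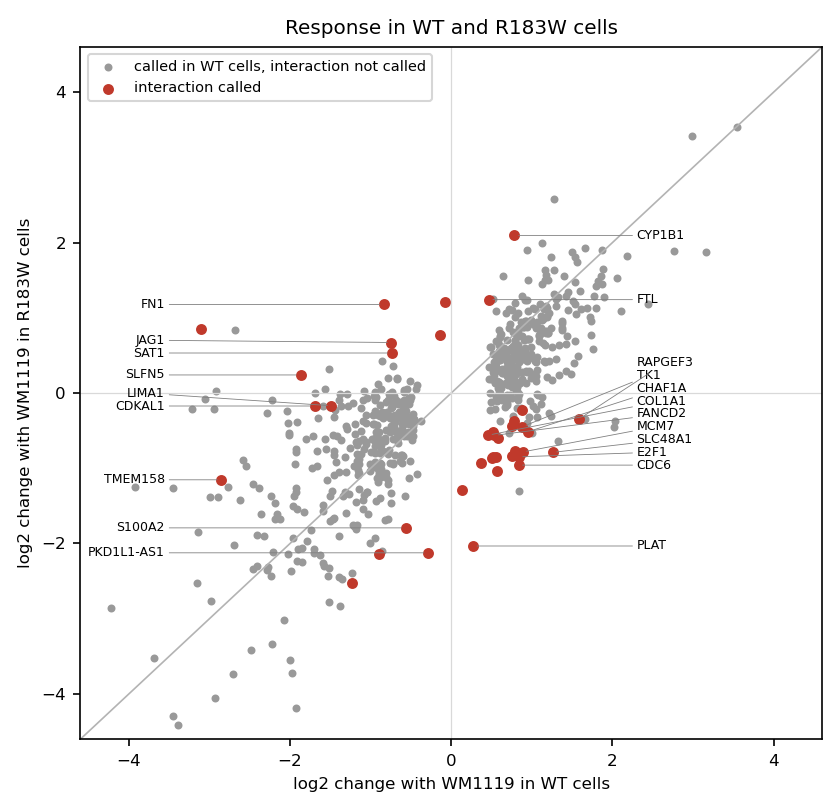
Log2 change with WM1119 in WT cells (horizontal axis) against that in R183W cells (vertical axis) for genes called in WT cells or in the interaction, 678 of which fall within the axes. Red points are the 39 plotted genes with a called interaction, named where the text names them, and the grey diagonal marks equal change. MCM7, E2F1, CDC6 and CHAF1A lie to the right of 0 and below 0, and FN1, JAG1 and SAT1 to the left of 0 and above it.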

How the data were processed

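RNA-seq was done on 11 libraries of HEC50B cells, made per the labels from polyA RNA with a kit that removes ribosomal RNA. The deposited values are expected counts per gene, whole numbers made by the authors with STAR and RSEM on build hg19, per the submitters' processing notes, which give no versions. The annotation, the alignment settings and whether counting used strand were not recorded there, so reads of antisense, overlapping and near-identical genes may be mixed. Of 57736 gene IDs, 52301 matched a symbol, and IDs without one held 0.822% to 1.01% of counts. No table column was left unused.

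Genes were filtered with filterByExpr and scaled with TMM, and 1 mean per group was fitted over all 11 libraries with edgeR 4.0.16 (R 4.3.3) and its quasi-likelihood F test, with Benjamini-Hochberg adjustment over all genes. The interaction is the effect of WM1119 in R183W less that in WT cells. Alternatives used limma 3.58.1 and DESeq2 1.42.0, other scaling and filters, each library left out, only WT libraries, a replicate block and, added after seeing the data, correction for GC content (the median over each gene's GENCODE transcripts, as for length). The procedure was tested on simulated data for WM1119 in WT cells: over 13601 genes it recovered 8.20%, 33.3% and 76.6% of genes changed 1.5-, 2- and 4-fold, with 4 false calls. The simulated libraries shared 1 spread per gene and held no outlying library and no GC trend. The recovery and the 4 false calls therefore give no error rate for the calls in the real libraries. Depth was 2609922 to 5261548 counts per WT library, and 3 counts were taken as the floor.

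The comparison, the gene lists and the rules were chosen with earlier results of these data known. Named are PPP2R1A and KAT6A; the 15 largest changes each way among genes called with and without library 3, of at least 5 CPM and without overlap; up to 4 called members of each of 57 lists; the 6 largest interactions each way called in both fits; the 8 genes highest and lowest in library 3 against libraries 1 and 2, of at least 10 CPM; and the 4 largest changes lost without library 3. PDGFRA, KRT18, KRT19, CDH1 and single members of lists were named after their values were seen. Some genes that these rules choose are not reported here.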

Additional observations from a re-analysis of the deposited data

Results flagged for a closer look

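The values below are differences between the WM1119 effect in R183W cells and that in WT cells, on the log2 scale, for named genes in which edgeR's interaction test passed an adjusted p of 0.05. Among genes called higher in WT cells the difference was -1.67 for MCM7, -1.68 for E2F1, -1.79 for CDC6, -1.47 for CHAF1A, -1.33 for TK1 and -1.10 for FANCD2, all genes of DNA replication or its repair. It was -2.05 for SLC48A1, -1.93 for RAPGEF3, an exchange factor that senses cyclic AMP, and -1.02 for COL1A1. CYP1B1 and FTL, also called higher in WT cells, differed the other way, by 1.31 and 0.775.

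Among genes called lower in WT cells the difference was 2.11 for SLFN5, 2.01 for FN1, 1.70 for TMEM158, 1.52 for CDKAL1, which encodes a tRNA-modifying enzyme, 1.41 for JAG1, 1.32 for LIMA1 and 1.27 for SAT1. S100A2 fell in both lines, further in R183W cells, with a difference of -1.23. PLAT and PKD1L1-AS1 were not called in WT cells and differed by -2.30 and -1.84. PKD1L1-AS1 is an antisense gene whose reads may belong to its partner. All of these were also called in the interaction without WT WM1119 library 3. None was called without R183W vehicle library 2 or 3 or with the replicate block, where edgeR called 0 interactions in all.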

How the results depend on the processing

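The number of genes called with WM1119 in WT cells was 680. DESeq2 called 1086, limma-voom with sample quality weights 2463 and edgeR with no filter on low counts 1287. Only the 6 WT libraries gave 139 calls, the same with GC correction 147, and WT libraries without WM1119 library 3 335. With a replicate block edgeR called 287 genes, all among the 680, and 2495 had an unadjusted p under 0.05. The labels share replicate numbers, but same-numbered WT libraries did not deviate together (correlations -0.391, 0.0773 and -0.360), so the numbers were not taken as pairs. Some differently numbered WT libraries did: vehicle 1 and WM1119 3 correlated at 0.405, and vehicle 3 and WM1119 1 at 0.377. The rest ran from -0.154 to 0.0998. The fit does not model such shared deviations. Leaving out 1 library at a time gave 247 to 1392 calls.

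The interaction was called for 40 genes. DESeq2 called 157, limma-voom with sample quality weights 440 and edgeR with no filter 191. GC correction without library 3 gave 274. The replicate block gave 0 in edgeR, with 1023 genes at an unadjusted p under 0.05, and leaving out 1 library at a time gave 0 to 192. DESeq2 size factors, limma-voom and GC correction stayed within 1.5 times of both counts.

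Over the alternatives of named genes, 2680 values kept their side of the threshold, 795 missed it and 6 passed it newly, and none was called in the opposite direction. Genes that were not called could change sign. Without library 3 the log2 change of MC1R went from 1.67 to -0.65 and that of FN3K from 0.62 to -0.69. For counts and medians of lists, 2984 were unmoved and 712 moved. Except where a value above shows it, the cause was not tested. Depth limits genes of a few CPM, where 3 counts are the floor.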

Other observations

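Called genes were also placed along the chromosomes. Of 298 placed protein-coding genes called higher, 29 (9.73%) had a tested protein-coding neighbour that was also called higher, against 579 of all 11685 placed genes (4.96%). Of 329 called lower it was 39 (11.9%), against 645 (5.52%). These shares are a description without a test. NDUFV1 and its neighbour NUDT8 changed by 1.68 and 3.16 on the log2 scale, and RAPGEF3 and SLC48A1 by 1.59 and 1.26. CDCP1, a transmembrane protein of cell adhesion, and TMEM158 changed by -2.22 and -2.85. Overlapping or read-through transcripts can share reads between neighbours, and their part was not tested.

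Calls were mostly in protein-coding genes. Of 11814 tested, 301 were called higher (2.55%) and 330 lower (2.79%), while of 1767 genes of other annotated types 20 were higher (1.13%) and 22 lower (1.25%). Transcripts of genes called higher had a median length of 923 bases, those of genes called lower 1136 and all with a value 993.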
